A study of Mus musculus with 27 samples.

Results

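The liver genes described here make, store and break down glycogen. They are Gys2, Gbe1, Pygl, Ugp2, Ppp1r3b, Ppp1r3c, Ppp1r3g, Gyg and Phka2, 9 of the 21823 genes in the table, and they were taken by symbol from a list of the pathway, with no measured value in the rule. RNA of lobular zones cut from mouse liver sections with a laser microscope was sequenced in non-pregnant (NP) females and in pregnant females at dpc8 and dpc16, that is day 8 and day 16 post coitum. Zone 1 is the portal side of the lobule, zone 3 the central side and zone 2 the middle. There were 3 libraries for each stage and zone, 27 in all, and every mouse was labelled as female, wild-type and C57BL/6. The groups were NP zone 1, NP zone 2, NP zone 3 and the same zones at dpc8 and at dpc16, with no treatment. The labels give no age, and they do not say whether libraries with the same number in different zones came from the same mouse. Where they did, p-values of differences between stages are too small.

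Glycogen is a branched glucose polymer that hepatocytes lay down after a meal and break down between meals to release glucose into the blood. Ugp2 makes the activated glucose donor, Gyg primes the chain, Gys2 extends it and Gbe1 adds branches, whereas Pygl cleaves glucose units off the chain ends after it is switched on by phosphorylase kinase, whose liver regulatory subunit is Phka2. The Ppp1r3 proteins carry protein phosphatase 1 to the glycogen particle, where it switches the synthase on and the phosphorylase off.

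The deposited unit was FPKM, which scales fragments to transcript length and to a size set for the library, so levels of different genes are given per length. Whether that size was the mapped total was not stated. Summed FPKM ran from 499866 to 988500, while the median ratio of genes to their mean level was 0.981 to 1.05 in each library. Read numbers are not part of the table, but low values of genes with a single transcript could be placed on steps of 1 to 4 reads, with 89.3% to 98% of those examined within 0.1 of a whole read. The depth of each library was chosen to make this share largest, from 56 to 299 values, so the share is not a separate check of the depth. By these steps the libraries held an estimated 7.35 to 32.5 M reads (M, mega) with a median of 16.1 M, and 1 read on 1 kilobase was worth 0.0307 to 0.136 FPKM. The read numbers hold only if the FPKM of a library were scaled to its own mapped total. Hepatocyte markers were high in every library, with a mean log2(FPKM + 1) of 9.79 to 11.9 over 7 markers. The zone labels matched their markers. The periportal list of 9 genes averaged 8.12 to 9.39 in zone 1 and 2.35 to 4.60 in zone 3 on that scale, and the pericentral list of 8 genes averaged 3.38 to 3.84 in zone 1 and 7.89 to 9.0 in zone 3. In 6 libraries the summed FPKM of 4 Y-linked genes was 7.92 to 23.2, although the labels give females, against at most 2.97 in the other 21. They were replicate 1 in zone 1 and replicate 2 in zone 3 of NP mice, replicate 1 in zone 1 and replicate 2 in zone 2 at dpc8, and replicate 3 in zones 2 and 3 at dpc16. The same 6 had the highest mean of 12 connective tissue and smooth muscle markers, 5.03 to 6.49 against 1.37 to 4.31. Their hepatocyte markers averaged 9.79 to 10.6, against 10.6 to 11.9 in the other 21. Results that rest on these 6 libraries are given with and without them. Gene positions below are those of GENCODE vM21 on mm10, and all 9 genes are annotated as protein coding. As these are bulk samples, fewer cells of a type and less RNA per cell cannot be told apart.

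The genes Pygl, Gbe1 and Ugp2 were those that passed the test as lower at dpc16 than at dpc8 over all zones, as described further on. The 250 bases before each start of transcription are printed for them from RefSeq (build GRCm38.p6). Capitals mark matches to GGGCGG, the core of a GC box, and to CCAAT, on either strand. Ugp2 has 2 starts, and of all 9 genes 7 had an entry, which excludes Gys2 and Ppp1r3b.
Pygl, chr12:70227684-70227933, minus strand: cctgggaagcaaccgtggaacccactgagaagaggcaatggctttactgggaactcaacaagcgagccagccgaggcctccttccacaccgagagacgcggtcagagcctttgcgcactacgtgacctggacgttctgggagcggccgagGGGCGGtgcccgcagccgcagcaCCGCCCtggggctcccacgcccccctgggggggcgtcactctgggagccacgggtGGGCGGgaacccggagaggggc
Gbe1, chr16:70313699-70313948, plus strand: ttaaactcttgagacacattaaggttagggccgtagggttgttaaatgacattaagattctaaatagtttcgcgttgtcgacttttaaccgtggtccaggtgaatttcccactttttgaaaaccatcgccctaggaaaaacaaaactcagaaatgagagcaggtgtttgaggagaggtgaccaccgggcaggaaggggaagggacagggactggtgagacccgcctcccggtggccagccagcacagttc
Ugp2, inner start, chr11:21370630-21370879, minus strand: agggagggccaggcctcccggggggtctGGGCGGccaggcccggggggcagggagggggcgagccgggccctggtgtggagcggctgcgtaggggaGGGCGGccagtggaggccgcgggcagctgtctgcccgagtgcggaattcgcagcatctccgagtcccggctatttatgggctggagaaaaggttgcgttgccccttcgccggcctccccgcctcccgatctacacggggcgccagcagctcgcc
Ugp2, outer start, chr11:21371268-21371517, minus strand: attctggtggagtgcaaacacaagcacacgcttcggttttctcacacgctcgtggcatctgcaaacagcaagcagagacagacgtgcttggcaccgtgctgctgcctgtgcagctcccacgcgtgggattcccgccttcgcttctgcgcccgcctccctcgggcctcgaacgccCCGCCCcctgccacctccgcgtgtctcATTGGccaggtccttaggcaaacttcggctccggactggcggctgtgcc
The Pygl window held 3 GC boxes and was 69.2% G or C, each Ugp2 window held at least 1 GC box at 73.6% and 64% G or C, and the Gbe1 window held none at 48.8%, against a median of 52.4% over 32851 mouse promoters. A GC box stood in 32.7% of those promoters and CCAAT in 33.8%. The other motifs searched, on both strands, were TATAAA (in 12.4% of promoters), the E-box CACGTG (6.02%), TGACGTCA (1.55%) and TTGCGCAA (0.164%), and none of them was present in the 4 windows. In GENCODE vM21 a noncoding transcript of the opposite strand overlaps the Pygl window and another overlaps the outer Ugp2 window. The RefSeq starts differ in part from that annotation. The Pygl window and the inner Ugp2 window lie within the GENCODE span of their own gene. The bases that follow either Ugp2 start were not found in a GENCODE transcript of Ugp2, whereas those of Pygl and Gbe1 were found. No binding of a factor was measured here.

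**Figure D1:**
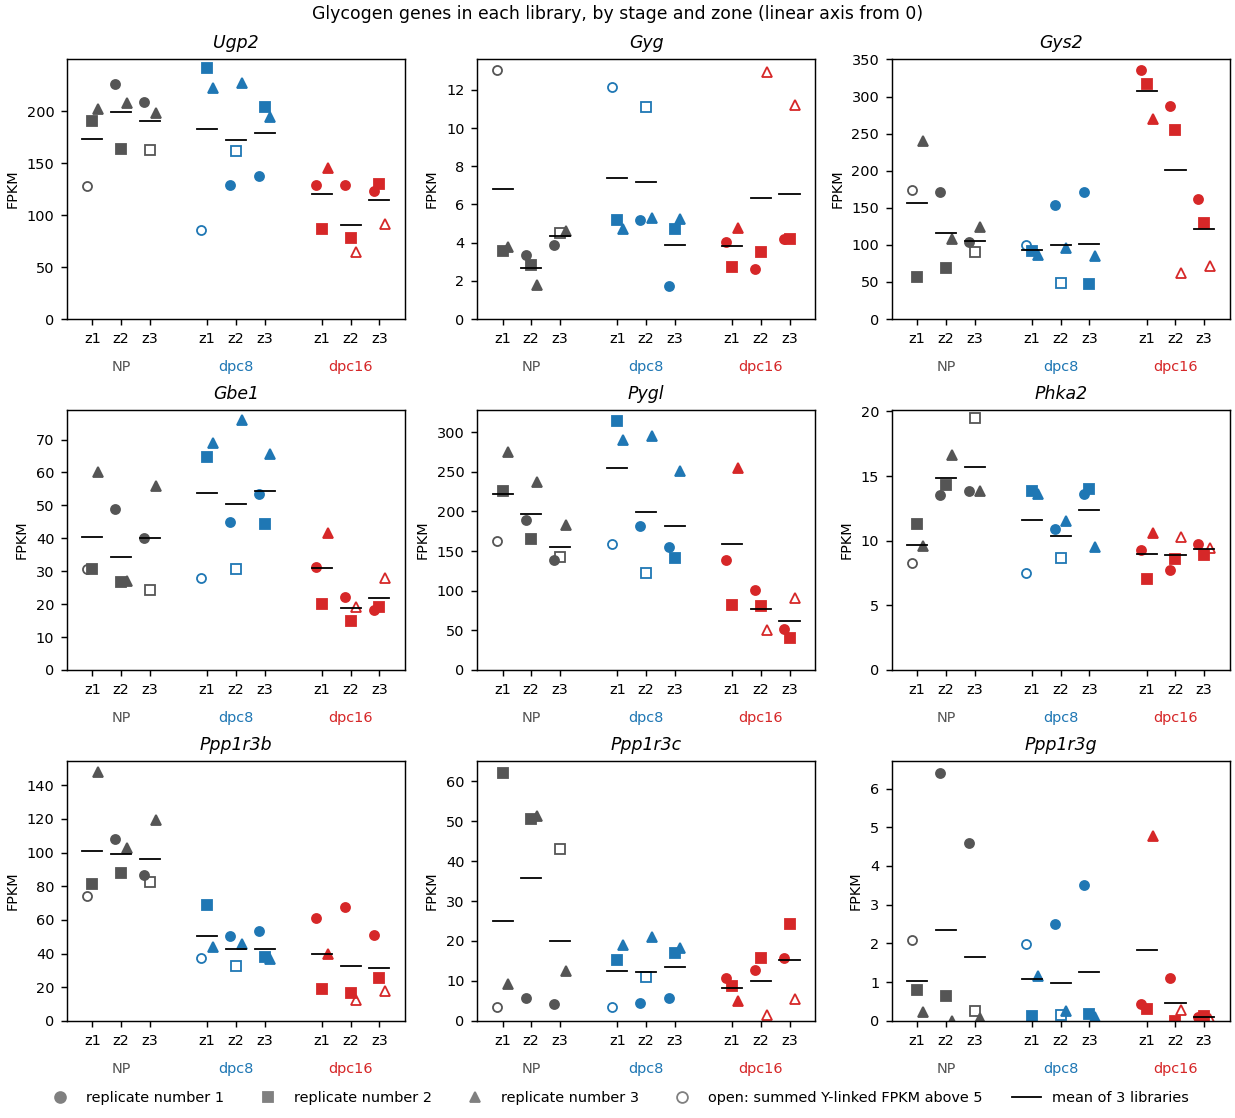
FPKM of the 9 glycogen genes in all 27 libraries, by stage and zone (z1 to z3), on linear axes that start at 0. Marker shapes give the replicate number, open symbols the 6 libraries with summed Y-linked FPKM above 5 and bars the mean of 3 libraries. Gys2 in dpc16 zone 1 (270 to 336 FPKM) lies above every other group's mean, while the means of Pygl, Ugp2 and Ppp1r3b are lower at dpc16 than in NP mice in every zone.

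Between NP and dpc16, over all zones together, 4 of the 9 genes were called lower and none higher. They were Ppp1r3b, Pygl, Ugp2 and Phka2, and the background was that 6.15% of the 12952 genes tested were called lower and 5.65% higher (limma on log2(FPKM + 1), adjusted p under 0.05). The median difference of the 9 genes was -0.65 on the log2 scale, with 7 of 9 negative, against -0.01 over all genes tested. Between dpc8 and dpc16, 3 of the 9 were called lower, namely Pygl, Gbe1 and Ugp2, with 5.69% of all genes called lower and 5.37% higher. The difference was negative in 8 of the 9. Between NP and dpc8 none of the 9 was called, and only 0.108% of all genes were, with 1 of the 9 and 6.11% of all genes at an unadjusted p under 0.05. Without the 6 libraries with Y-linked FPKM, 6 of the 9 were called between NP and dpc16, Gbe1 lower and Gys2 higher in addition, and 5 between dpc8 and dpc16, Gys2 higher and Phka2 lower in addition, while 16.6% and 18.7% of all genes were called in either direction. Fits that allow for libraries of a number being alike gave fewer. With the replicate block 3 and 2 of the 9 were called (6.8% and 6.18% of all genes), and with the zones of a number averaged 1 and 1, Ppp1r3b and Pygl (3.08% and 2.14%). These comparisons share the same groups, so that their values are set side by side below and not compared as independent evidence.
Zone by zone, the count of the 9 genes whose 3 values at dpc16 all lay below the 3 NP values was 1, 5 and 4 in zones 1, 2 and 3, where 8.01%, 9.59% and 8.87% of all genes did so, and 1 gene lay above in zone 1 (9.42%). Against dpc8, 1 gene lay above in zone 1 (9.80%), 2 lay below in zone 2 (6.96%) and 3 in zone 3 (12.2%). Between NP and dpc8, 1, 2 and 1 genes lay below (2.92%, 5.76% and 5.07%) and 1 lay above in zone 2 (4.29%). In single zones limma called 1 of the 9, in zone 2 between NP and dpc16, with 1.64% of all genes called lower there. It called none of the 9 between NP and dpc16 in zones 1 and 3 (1.37% and 1.32% of all genes), between dpc8 and dpc16 in zones 1 to 3 (2.01%, 1.51% and 1.37%) or between NP and dpc8 in zones 1 to 3 (0.0309%, 0.00772% and 0.0154%). At an unadjusted p under 0.05 there were 2 and 4 of the 9 in the first of these sets, where 11.0% and 11.5% of all genes were, and 1, 3 and 2 in the second (13.4%, 12.1% and 12.4%). In the third there were 0, 3 and 1 (3.13%, 5.06% and 2.74%). At dpc16 the share of all FPKM taken by Alb was 7.98% to 21.0%, against 3.71% to 11.98% in NP libraries, and its part in the lower values was not tested.

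**Figure D2:**
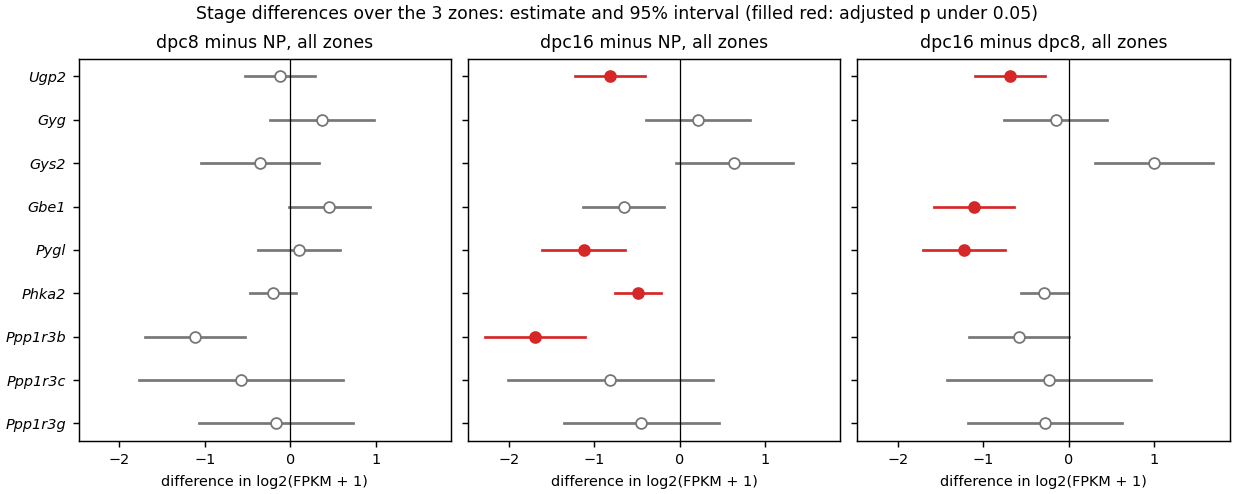
Differences between stages averaged over the 3 zones, in log2(FPKM + 1), with 95% intervals from limma for each of the 9 genes. Filled red points have an adjusted p under 0.05: Ugp2, Pygl, Phka2 and Ppp1r3b for dpc16 minus NP, and Ugp2, Gbe1 and Pygl for dpc16 minus dpc8.

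Ugp2 (ENSMUSG00000001891.16, chr11:21321138-21371201), which makes UDP-glucose, the donor of every glucose unit added to glycogen, stood between 64.1 and 241 FPKM in all libraries. In NP mice its 9 values ran from 128 to 226 with a median of 198 FPKM, at dpc8 from 85.8 to 241 with a median of 195, and at dpc16 from 64.1 to 145 with a median of 122.7. The dpc16 values in zones 2 and 3 lay below all NP values of the same zone, whereas in zone 1 they overlapped. Ugp2 fell by 0.81 on the log2 scale from NP to dpc16 (SE 0.20, limma adjusted p = 0.0082) and by 0.69 from dpc8 to dpc16 (SE 0.20, adjusted p = 0.025). With the zones of a number averaged both calls were lost (adjusted p = 0.132 and 0.21). The second was also lost with the replicate number as a block (adjusted p = 0.0765), in a fit without the NP libraries (adjusted p = 0.0575) and without any 1 of 5 libraries, which were replicates 2 and 3 of dpc8 zone 1, replicate 3 of dpc8 zone 2, replicate 2 of dpc8 zone 3 and replicate 2 of dpc16 zone 1 (adjusted p from 0.0523 to 0.0645). No group mean of Ugp2 was separated from the next in order, from 199 ± 32.1 FPKM (SD, n = 3) in NP zone 2 down to 90.3 ± 34.2 in dpc16 zone 2.

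Gys2 (ENSMUSG00000030244.7, chr6:142422613-142473109), the liver isoform of glycogen synthase and the enzyme that lengthens the chain, differed most between groups in dpc16 zone 1. Its values there were 336, 316 and 270 FPKM, in NP zone 1 they were 174, 56.1 and 240, and in dpc8 zone 1 they were 100, 91.7 and 85.7. All 3 dpc16 values thus lay above all 6 others of zone 1. The differences were 1.20 (SE 0.57, limma adjusted p = 0.45) from NP and 1.72 (SE 0.57, adjusted p = 0.151) from dpc8, so neither passed the test. The first ranged from 0.58 without replicate 2 of NP zone 1 to 1.62 without single libraries and was called under no setting. The second passed when the groups compared were fitted alone (adjusted p = 0.0179) and with array weights (adjusted p = 0.0273), and its adjusted p was 0.0696 when the 6 libraries with Y-linked FPKM were left out.
In dpc16 zone 2 the values of Gys2 were 287, 256 and 61.6 FPKM, and in dpc16 zone 3 they were 162, 130 and 71.9. The low value in each of these zones came from replicate 3, which was 1 of the 6 libraries with Y-linked FPKM. In the order of its 9 group means, dpc16 zone 1 (307 ± 34.0, SD, n = 3) came first and dpc16 zone 2 (201 ± 122) second, and each group overlapped the next, down to dpc8 zone 1 (92.6 ± 7.35). Over all zones Gys2 was 0.64 higher at dpc16 than in NP mice (95% interval -0.04 to 1.33, adjusted p = 0.247) and 1.0 higher than at dpc8 (0.31 to 1.68, adjusted p = 0.0562). Without the 6 libraries these differences were 1.02 (adjusted p = 0.0343) and 1.21 (adjusted p = 0.012). The second also passed without replicate 3 of dpc16 zone 2 (1.23, adjusted p = 0.00752) or of dpc16 zone 3 (1.11, adjusted p = 0.039), and without replicate 1 of dpc8 zone 2 (1.12, adjusted p = 0.0393) or of dpc8 zone 3 (1.15, adjusted p = 0.03). Those were 4 of 18 fits without 1 library, and 0 of 18 called the first. Neither passed with the replicate number as a block or with the zones of a number averaged. Over the 10 other settings their adjusted p reached 0.543 and 0.296.

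Gbe1 (ENSMUSG00000022707.16, chr16:70313949-70569716), the branching enzyme, had a higher median at dpc8 than in NP mice and a lower one at dpc16. Its 9 values ran from 24.3 to 60.03 FPKM in NP mice (median 30.8), from 28.0 to 75.9 at dpc8 (median 53.4) and from 15.0 to 41.6 at dpc16 (median 20.0). In zones 2 and 3 all dpc16 values lay below all dpc8 values. The fall from dpc8 to dpc16 was 1.11 on the log2 scale over all zones (SE 0.23, limma adjusted p = 0.0025), a call lost with the zones of a number averaged (adjusted p = 0.0732). From NP to dpc16 the difference was -0.65 (SE 0.23, adjusted p = 0.0676). From NP to dpc8 it was 0.46 (95% interval -0.01 to 0.93, adjusted p = 0.836). Without the 6 libraries with Y-linked FPKM the difference from NP to dpc16 was -0.88 (adjusted p = 0.00872). It also passed without replicate 2 of NP zone 3 (-0.76, adjusted p = 0.0355) or replicate 3 of dpc16 zone 1 (-0.73, adjusted p = 0.0448), 2 of 18 fits without 1 library. Of the 10 other settings 3 called it, and the adjusted p reached 0.26. It did not pass with the replicate number as a block or with the zones of a number averaged.

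Gyg (ENSMUSG00000019528.18, chr3:20122084-20155317), glycogenin, the protein on which a new glycogen chain is started, was weakly expressed and had its highest values in libraries rich in connective tissue markers. It stood at 11.1 to 13.0 FPKM in 5 of the 6 libraries with Y-linked FPKM, at 4.52 FPKM in the sixth (NP zone 3 replicate 2), and at 1.75 to 5.27 FPKM in the other 21. Over the 27 libraries its correlation with the mean of the connective tissue list was r = 0.82, given as a description, because the libraries fall into separate sets and share that tissue content. None of the 20 contrasts called Gyg, and between NP and dpc16 it differed by 0.21 (95% interval -0.39 to 0.82). The part of connective tissue in the level of Gyg was not tested. RNA of the muscle synthase Gys1 was 6.50 to 9.90 FPKM in the 6 libraries and 0.53 to 7.57 in the others, and the brain phosphorylase Pygb 2.77 to 20.7 and 1.21 to 11.7.

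**Figure D3:**
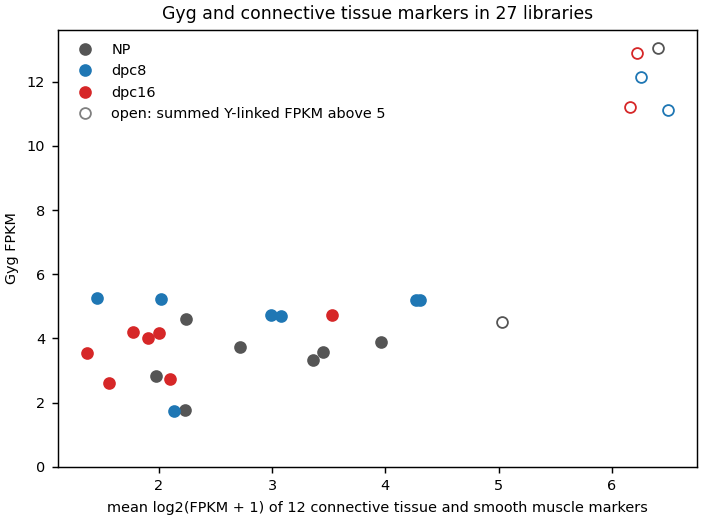
FPKM of Gyg in each of the 27 libraries (linear axis from 0) against the mean log2(FPKM + 1) of 12 connective tissue and smooth muscle markers, with stages in colour and the 6 libraries with summed Y-linked FPKM above 5 as open circles. Of the open circles 5 lie at 11.1 to 13.0 FPKM, and the filled circles lie between 1.75 and 5.27.

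Pygl (ENSMUSG00000021069.17, chr12:70190811-70231488), liver glycogen phosphorylase, which releases glucose 1-phosphate from the chain, had its lowest group means at dpc16 in zones 2 and 3. The values there were 101, 80.6 and 50.6 FPKM in zone 2 and 51.3, 40.8 and 91.4 in zone 3. In NP mice zone 2 had 189, 165 and 237 FPKM and zone 3 had 139, 142 and 182. The groups did not overlap in either zone. In zone 1 the NP values of 163, 226 and 275 FPKM and the dpc16 values of 139, 82.3 and 255 overlapped. Over all zones Pygl fell by 1.12 on the log2 scale from NP to dpc16 (SE 0.23, limma adjusted p = 0.0025) and by 1.23 from dpc8 to dpc16 (SE 0.23, adjusted p = 0.0012). Both calls held without any single library. When the 3 zones of a replicate number were averaged into 1 value, the first was lost (adjusted p = 0.0567) and the second held (adjusted p = 0.0498). In the order of group means NP zone 3 (155 ± 24.1 FPKM, SD, n = 3) and dpc16 zone 2 (77.5 ± 25.5) were the only neighbours that did not overlap.

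Phka2 (ENSMUSG00000031295.13, chrX:160502166-160598878), the liver regulatory subunit of phosphorylase kinase, showed small differences with a small spread. In NP mice it stood at 8.25, 11.3 and 9.55 FPKM in zone 1, at 13.5, 14.3 and 16.6 in zone 2 and at 13.8, 19.5 and 13.8 in zone 3. The 9 dpc16 values lay between 7.07 and 10.6 FPKM in all zones. At dpc16 the values of zones 2 and 3 therefore lay below all NP values of those zones, while in zone 1 they overlapped. Over all zones Phka2 fell by 0.49 on the log2 scale from NP to dpc16 (SE 0.13, limma adjusted p = 0.0168), a call that was lost with the replicate number as a block (adjusted p = 0.0738), with the zones averaged (0.14) and with quantile normalization (0.0513). From dpc8 to dpc16 the difference was -0.29 (adjusted p = 0.184), and without the 6 libraries with Y-linked FPKM -0.45 (adjusted p = 0.018). In NP mice zone 1 was 0.63 below zone 3 without overlap (adjusted p = 0.321), where 6.05% of all genes were lower without overlap. Without those 6 libraries that difference was -0.38.

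Among the phosphatase targeting subunits, Ppp1r3b (ENSMUSG00000046794.9, chr8:35375739-35388139), the main one in liver, had the largest fall of the 9 genes from NP to dpc16. Its NP values were 74.3, 81.5 and 148 FPKM in zone 1, 108, 87.6 and 102 in zone 2, and 86.7, 82.6 and 119 in zone 3. At dpc8 they were 37.2, 69.1 and 44.1 FPKM in zone 1, 50.7, 32.4 and 45.6 in zone 2, and 53.6, 38.2 and 36.8 in zone 3. At dpc16 they were 61.4, 19.1 and 39.5 FPKM in zone 1, 67.9, 16.7 and 12.3 in zone 2, and 51.1, 25.5 and 17.5 in zone 3. The NP values lay above all dpc8 values and all dpc16 values of the same zone in each of the 3 zones. Over all zones Ppp1r3b fell by 1.69 on the log2 scale from NP to dpc16 (SE 0.28, limma adjusted p = 2.8e-04), and this call held under the 10 other settings and without any single library. The difference from NP to dpc8 was -1.11 (SE 0.28, unadjusted p = 6.9e-04, adjusted p = 0.22). Zone by zone, the only call among the 9 genes was the fall of Ppp1r3b by 1.98 in zone 2 from NP to dpc16 (SE 0.49, adjusted p = 0.027). That call was lost without any 1 of the 3 NP libraries, without replicate 2 or without replicate 3 of dpc16 (adjusted p from 0.0605 to 0.142, with a difference of -1.52 without replicate 3), and in a fit of these 6 libraries alone (adjusted p = 0.355). It was also lost without the libraries with Y-linked FPKM (-1.52, adjusted p = 0.104), where Phka2 was the 1 of the 9 genes called in zone 2 (-0.78, adjusted p = 0.0404). At dpc16 replicate 1 stood above the other numbers in every zone, at 51.1 to 67.9 FPKM.

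Ppp1r3c (ENSMUSG00000067279.3, chr19:36731731-36736653), a targeting subunit found in liver and muscle, varied more between replicate numbers than between stages. In NP mice replicate 1 stood at 3.59, 5.62 and 4.27 FPKM in zones 1, 2 and 3, replicate 2 at 62.0, 50.6 and 43.0, and replicate 3 at 9.16, 51.3 and 12.5. At dpc8 replicate 1 was again low in each zone, at 3.39 to 5.64 FPKM, against 10.9 to 21.0 in the others, and at dpc16 replicate 3 was the lowest, at 1.42 to 5.58 against 8.73 to 24.1. Replicate number within a stage accounted for 88.6% of the squared spread within groups on the log2 scale, against a median of 45.5% and an upper quartile of 59.1% over all genes tested. The share was also above that quartile for Ppp1r3b (69.7%) and Gys2 (68.4%), and it was 28.2% to 56.3% for Gbe1, Pygl, Ugp2, Gyg and Phka2. Ppp1r3c was not called in any contrast, and from NP to dpc16 the difference was -0.81 with a 95% interval from -2.0 to 0.39.

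Ppp1r3g (ENSMUSG00000050423.11, chr13:35958839-35970388), another targeting subunit, known as one that responds to feeding, was low in most libraries and followed the number in the opposite sense. In NP mice replicate 1 stood at 2.1, 6.39 and 4.59 FPKM in zones 1, 2 and 3, and the other 6 NP libraries at 0 to 0.81. At dpc8 replicate 1 stood at 1.99, 2.51 and 3.51 FPKM, and the others at 0.10 to 1.17. At dpc16 a single library, zone 1 replicate 3, reached 4.77 FPKM and the others lay at 0 to 1.10. Libraries high in Ppp1r3g were thus low in Ppp1r3c in NP and dpc8 mice, and number accounted for 77% of the within-group spread of Ppp1r3g. The correlation of the pair after removal of the group means was r = -0.62 over 27 libraries, as a description, since libraries of a number may share an animal. No contrast called Ppp1r3g. What the replicate number stands for is not in the labels.

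**Figure D4:**
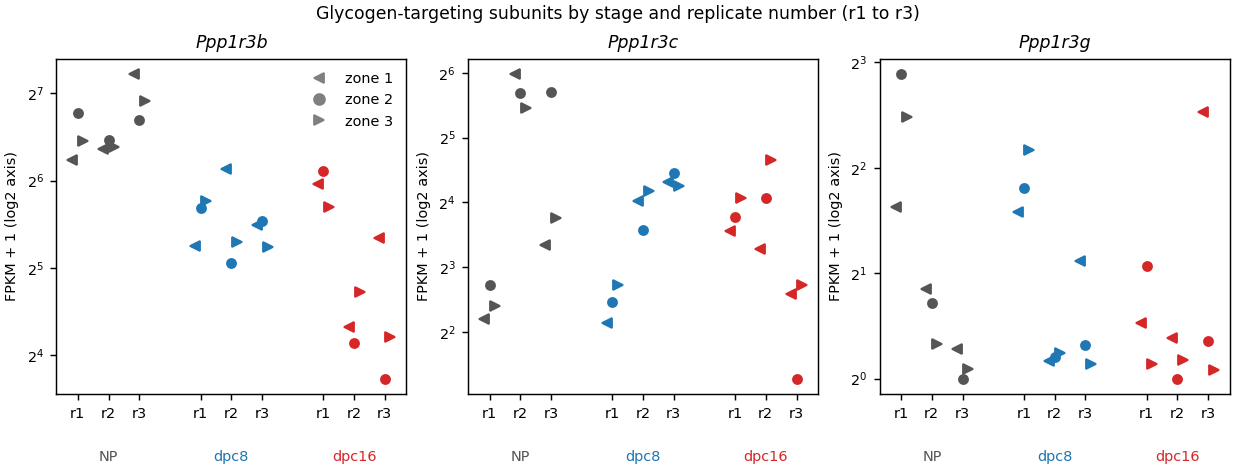
FPKM + 1 on a log2 axis of the phosphatase targeting subunits Ppp1r3b, Ppp1r3c and Ppp1r3g, by stage and replicate number (r1 to r3), with marker shapes for the zones. In NP and dpc8 mice r1 is low in Ppp1r3c (3.39 to 5.64 FPKM) and high in Ppp1r3g (1.99 to 6.39 FPKM) in all 3 zones.

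The balance of synthase to phosphorylase RNA was read within each library as the ratio of the FPKM of Gys2 to that of Pygl, both per length. It was 0.248 to 1.07 in the 9 NP libraries (median 0.678) and 0.292 to 1.1 in the 9 dpc8 libraries (median 0.337). At dpc16 it was 0.787 to 3.85 (median 2.84). The mean ratio at dpc16 was close to the same number in the 3 zones, 2.44 ± 1.39 in zone 1, 2.41 ± 1.05 in zone 2 and 2.37 ± 1.38 in zone 3 (SD, n = 3), although both genes had higher means in zone 1 than in zone 3. Replicate 3 had the lowest ratio at dpc16 in every zone (0.787 to 1.22), and in zones 1 and 3 it lay within the NP range. The ratio of Ppp1r3b to Gys2 went the other way, from 0.427 to 1.45 in NP mice to 0.314 to 0.82 at dpc8 and 0.0602 to 0.317 at dpc16, so that NP and dpc16 did not overlap. These ratios are descriptions, and no test was run on them.

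**Figure D5:**
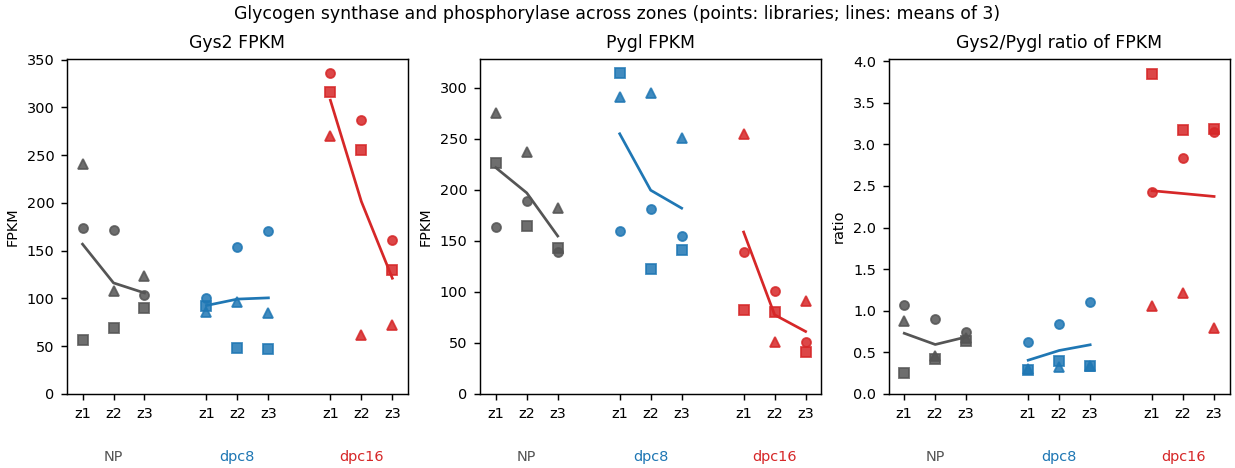
FPKM of Gys2 and of Pygl and their ratio in each library, by stage and zone (z1 to z3), on linear axes from 0, with lines through the means of 3 libraries and marker shapes for replicate numbers as circle, square and triangle for 1, 2 and 3. The means of both genes are lower in zone 3 than in zone 1 at dpc16, while the mean ratio stays at 2.37 to 2.44.

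None of the 9 genes was called between zones 1 and 3, either at a single stage or over all stages, and 1.34% to 1.61% of all genes were called at the single stages and 5.59% over all stages (limma). At an unadjusted p under 0.05 there were 1, 0 and 2 of the 9 in NP, dpc8 and dpc16 mice, and 8.02%, 12.2% and 7.86% of all genes. Over all stages there was 1 of the 9, and 15.4% of all genes. Pygl came nearest, with a zone 1 level 0.75 above zone 3 over all stages (SE 0.23, adjusted p = 0.0641). It was called with the replicate number as a block (adjusted p = 0.026), and without the 6 libraries with Y-linked FPKM the difference was 1.01 (adjusted p = 0.00621). Leaving out replicate 1 of dpc8 zone 1, replicate 3 of dpc8 zone 3, replicate 2 of dpc16 zone 1 or replicate 3 of dpc16 zone 3 also brought it past the threshold (adjusted p from 0.0234 to 0.0490). At dpc16 the zone 1 values of Pygl were 139, 82.3 and 255 FPKM against 51.3, 40.8 and 91.4 in zone 3, a difference of 1.29 (SE 0.40, adjusted p = 0.161), and in each replicate number zone 1 was higher. With stage and replicate number as fixed blocks the adjusted p was 0.0719, with array weights 0.01, and without the libraries with Y-linked FPKM the difference was 1.62 (adjusted p = 0.02).
Gys2 at dpc16 was 1.41 higher in zone 1 than in zone 3 without overlap (SE 0.57, adjusted p = 0.447), in a contrast where 8.36% of all genes were higher without overlap. It was higher in all 3 replicate numbers, and with the fixed blocks the adjusted p was 0.0742. In NP mice the same difference was 0.34 and at dpc8 0.07. Ppp1r3g in dpc16 zone 1 (0.31 to 4.77 FPKM) also lay above zone 3 (0.06 to 0.13 FPKM). The test of a different change from NP to dpc16 in zones 1 and 3 called none of the 9 (0.0540% of all genes called, and 0 of the 9 and 3.16% of all genes at an unadjusted p under 0.05). For Gys2 the difference of changes was 1.07 with a 95% interval from -0.62 to 2.75, and it ranged from 0.45 without replicate 2 of NP zone 1 to 1.49 without single libraries. Zones 1 and 2 and zones 2 and 3 gave no call among the 9 either, with 0.919% and 1.88% of all genes called and 1 and 0 of the 9 (6.33% and 10.0% of all genes) at an unadjusted p under 0.05.

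Of 30 further genes of glycogen and glucose 6-phosphate handling, 26 passed the filter on low values, and 7 were called in at least 1 of the 20 contrasts, as were 19.4% of all genes tested. From NP to dpc16 over all zones 3 were called lower and 1 higher, with 6.15% and 5.65% of all genes called lower and higher. Pgm1, phosphoglucomutase, which interconverts glucose 1-phosphate and glucose 6-phosphate, fell by 0.54 (SE 0.16, adjusted p = 0.0289, or 0.0891 with the replicate block).
Stbd1, a protein that binds glycogen and leads it to lysosomes, rose by 0.87 (SE 0.27, adjusted p = 0.0354 and, with the block, 0.0823). From dpc8 to dpc16 also 3 were called lower and 1 higher (5.69% and 5.37% of all genes). Among them Pgm1 fell by 0.50 on the log2 scale and Slc2a2, the glucose transporter of hepatocytes, by 0.87, while Stbd1 rose by 0.90. With the block the adjusted p of Pgm1, Slc2a2 and Stbd1 were 0.128, 0.0994 and 0.0757. Of the 18 fits without 1 library, 6, 13 and 9 kept these calls, and from NP to dpc16 13 kept that of Pgm1 and 8 that of Stbd1. Between zones 1 and 3 over all stages, where 5.59% of all genes were called, G6pc, the catalytic subunit of glucose 6-phosphatase, was 1.93 higher in zone 1 (adjusted p = 0.00458), and its transporter partner Slc37a4 was 0.94 higher (adjusted p = 0.0449). The call of Slc37a4 held in 4 of the 18 fits that left out 1 library (adjusted p up to 0.104), and that of G6pc in all 18. Stbd1 was 1.10 lower in zone 1 than in zone 3 (adjusted p = 0.0138). The median difference of the 26 genes from NP to dpc16 was -0.12, against -0.65 for the 9 genes. The 4 genes that did not pass the filter, Nhlrc1, Phkg1, Ppp1r3a and Ppp1r3d, never exceeded 1.05 FPKM, and Ppp1r3a, the muscle targeting subunit, never exceeded 0.0785.

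The highest correlations among the 9 genes were those of Pygl, Gbe1 and Ugp2 with each other and of Ugp2 with Ppp1r3b. Over the 27 libraries, on log2(FPKM + 1), r was 0.81 for Gbe1 and Pygl, 0.73 for Gbe1 and Ugp2 and 0.72 for Pygl and Ugp2, and after removal of the group means 0.74, 0.63 and 0.60. Ugp2 and Ppp1r3b had r = 0.72 and, after that removal, 0.58. Against Gbe1, Pygl and Ugp2, Gys2 had r of -0.16, -0.09 and -0.25, and after removal of the group means 0.25, 0.17 and 0.09, so that the sign turned. Over all genes tested, those with the highest correlation to Pygl were Khk, ketohexokinase (r = 0.90), Sqor (0.90) and Exph5 (0.89). For Gbe1 they were Akr1c19, Echdc3 and Acss2, an acetyl-CoA synthetase (0.90 to 0.91), and for Ugp2 Gstt1, Prkaa2, a catalytic subunit of AMP-activated kinase, and Cyp2b9 (0.90 to 0.92). Gys2 was nearest to Acer2, Atl2 and Man2a1 (0.85 to 0.87), Ppp1r3b to Rnf5, Rarres2 and Zfp970 (0.81), Ppp1r3c to Ddc, Chic1 and Smagp (0.87 to 0.89) and Ppp1r3g to Dnmbp, Zbtb16 and Lpin1 (0.77 to 0.79). Gyg was nearest to Wwc2, 2310022B05Rik and Cand2 (0.90 to 0.91) and Phka2 to Tysnd1 (0.78) and Timm44 (0.77). These are descriptions over 27 libraries of 9 groups that share stages, zones and tissue content.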

How the data were processed

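Total RNA of laser-cut areas of liver sections was made into 27 ribosome-depleted libraries. According to the labels and methods, the authors trimmed reads with cutadapt, aligned them to mm10 with HISAT2 2.1.0 and ran Cuffdiff (Cufflinks 2.2.1) over protein-coding genes. Its FPKM was what they deposited, with no further scaling stated, and groups and replicate numbers come from the sample titles.

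A gene was tested if 3 or more libraries reached 1 FPKM, which left 12952 genes and all 9 glycogen genes. The model was fitted to log2(FPKM + 1) with limma 3.58.1 (R 4.3.3), with 1 mean for each of the 9 groups, and the options trend and robust switched on. P-values are two-sided, with Benjamini-Hochberg adjustment over all genes in each contrast and a threshold of 0.05. Fold changes on this scale understate those of weak genes. Contrasts over all zones or stages average the group contrasts. The procedure was checked on simulated data. Depth was estimated from the steps of low FPKM values of genes with 1 transcript in GENCODE vM21. It depends on an assumed fragment length and on how the FPKM were scaled between libraries.

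The 9 genes, the list of 30 further genes and the marker lists were chosen with earlier results of these data known. All 9 and, of the 30, those called in any contrast are named, and for each of the 9 the 3 genes with the highest correlation. A few genes that this rule would name are not reported here. Same-numbered libraries of different zones deviated together at dpc16 (9 of 9 correlations over 0.1, from 0.26 to 0.86) and less so in NP (4 of 9) or dpc8 mice (5 of 9). The tests reported first have no block, and blocked fits (random, with 1 correlation of 0.19 for all stages, or fixed, for zone contrasts) are given where they bear on a call. The scalings tried moved the median of all genes by less than 0.1 on the log2 scale in each contrast but zone 1 against zone 3 at dpc8, where it was 0.08 and, with quantile normalization, -0.04. Promoters came from RefSeq on GRCm38.p6.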

Additional observations from a re-analysis of the deposited data

How the results depend on the processing

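Depth is an estimate, groups hold 3 libraries, and whether libraries share a mouse is not in the labels. Among 74 single differences no called one turned direction under any setting, and of 1764 recomputed values 1577 kept direction and side of the threshold. The numbers that follow count glycogen genes called, of 9 (of 27 gene and zone or stage pairs where single zones or stages are given). Between NP and dpc16 over all zones 4 were called, 3 with the replicate block or quantile normalization (Phka2 lost in each), 6 with array weights or when the 6 libraries with Y-linked FPKM were left out, 5 with the connective tissue covariate, 1 with the zones of a number averaged (Ppp1r3b) and 4 to 5 without single libraries. The share of all genes called moved likewise, from 11.8% to 22.4% with array weights, 20% with the covariate and 16.6% without the 6 libraries. Between dpc8 and dpc16 over all zones 3 were called, 2 with the replicate block or only the groups compared (Ugp2 lost in each), 1 with the zones averaged (Pygl), 5 each with array weights, the covariate or when those 6 libraries were left out, and 2 to 4 without single libraries. The share of all genes went from 11.1% to 27.2%, 19.3% and 18.7% under those 3 settings. In single zones between NP and dpc16 the count was 1, and it was 5 with array weights, 6 with the covariate, 3 with quantile normalization, 2 without the 6 libraries, 0 with only the groups compared and 0 to 2 without single libraries. In single zones between dpc8 and dpc16 it was 0, and it was 9 with array weights, 4 with the covariate, 3 without the 6 libraries, 1 each with the replicate block, pseudocount 0.1, quantile normalization or only the groups compared, and 0 to 1 without single libraries. Between NP and dpc8 over all zones it was 0, and 1 with the covariate or only the groups compared (Ppp1r3b in each). Between zones 1 and 3 over all stages it was 0, and 1 (Pygl) with array weights, the covariate, quantile normalization, the replicate block, the fixed block or without the 6 libraries, and 0 to 1 without single libraries. At single stages it was 0, and 1 with array weights or without the 6 libraries. The replicate block changed no other call of the 9 genes beyond these. The cause of these moves was not tested, except that leaving out libraries leaves fewer samples. The fixed block and the averaged zones were chosen after seeing the data.

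Uncalled values that turned direction were these. Ppp1r3c between dpc8 and dpc16 was 0.02 with array weights and 0.02 without the 6 libraries, and Gyg 0.05 with the covariate. Ugp2 between zones 1 and 3 was 0.03 with quantile normalization, 0.01 with the covariate and 0.08 without the 6 libraries, and Ppp1r3c 0.27 without them. Without single libraries Ppp1r3c ranged from -0.46 to 0.06 between dpc8 and dpc16. Between NP and dpc8 Pygl ranged from -0.01 to 0.21, Ugp2 from -0.21 to 0.04 and Ppp1r3g from -0.39 to 0.11. Ugp2 ranged from -0.15 to 0.10 between zones 1 and 3, and Phka2 from -0.22 to 0.04 between NP and dpc16 in zone 1.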
